A study of Mus musculus with 40 samples.

Results

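High-fat diet (HFD) was compared with chow in brown adipose tissue (BAT) of C-3BO mice, in which *Gpr3* is overexpressed in brown and beige adipocytes. The comparison takes, by their labels, the 5 HFD C-3BO and the 5 chow C-3BO libraries, 10 of the 40 libraries of the series, and covers all 20295 genes of the count table. The question is how brown fat that is already driven by *Gpr3* responds to 1 week of dietary fat at thermoneutrality. C-3BO mice carry the *Gpr3* TTG allele, a CAG-driven transgene at the *Rosa26* locus of C57BL/6NTac that stays silent until Cre removes a stop cassette, together with the *Ucp1*-Cre transgene of B6.FVB-Tg(Ucp1-cre)1Evdr/J. Chow and HFD C-3BO mice share both alleles, so the transgene is present on either side of the comparison. All mice were males held at 29 °C, and HFD mice received a diet with 60% of its calories as fat for 7 days. The methods give an age of 13 to 19 weeks for the HFD challenge. They state no separate age for the sequenced chow mice, so equal ages on both diets cannot be assumed. Control littermates, 5 on each diet, carried the *Gpr3* TTG allele without Cre or Cre without the allele, and are used here only to compare the diet effect between genotypes. The Cre is driven by the *Ucp1* promoter, so recombination follows cells that use this promoter or once used it, from early life onward. Replicates are labelled as separate samples of a group, and p-values measure the spread between these samples.

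Brown adipocytes burn fatty acids and glucose in mitochondria that UCP1 makes leaky to protons, so that fuel energy leaves as heat. GPR3 is a receptor that couples to Gs and raises cyclic AMP without a known ligand, the same second messenger that noradrenaline raises through β-adrenergic receptors. At thermoneutrality the noradrenergic signal is low. Activated brown fat is known for high de novo lipogenesis, the synthesis of fatty acids from glucose carbon, alongside fatty acid oxidation, and dietary fat is known to lower lipogenic enzymes in the liver.

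Poly(A) RNA was sequenced and the deposited values are read counts on the exons of each gene. Library totals lay between 7584434 and 10488247 counts on chow and between 5026435 and 9122767 on HFD. Levels are given as CPM, the counts of a gene per 1000000 counts of its library, for which each library total was scaled by edgeR's TMM factor (0.798 to 0.918 on chow and 0.948 to 1.00 on HFD). A level of 3 counts, used as the floor of detection, was 0.332 to 0.452 CPM on chow and 0.339 to 0.614 CPM on HFD and covers counting error only. The tissue was recognisable as brown fat in every library. The 15 brown adipocyte markers summed to 24445, 22552, 30276, 22867 and 21149 CPM in the 5 chow mice and to 31116, 35551, 33144, 32599.7 and 31377 CPM in the 5 HFD mice, with no marker at 0.

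*Gpr3* (RefSeq NM_008154, chromosome 4, 132765255 to 132768451 in mm9) had 445, 266, 381, 463 and 323 CPM in the 5 chow mice and 688, 846, 709, 800.0 and 918 CPM in the 5 HFD mice. All 5 HFD mice lay above all 5 chow mice. The fitted log2 fold change was 1.08 (standard error 0.31, adjusted p = 0.00847), and 0.99 (adjusted p = 0.0455) without HFD mice 4 and 5. The call was lost when skeletal muscle transcripts were used as a covariate, with a log2 fold change of 1.21 (adjusted p = 0.168), and with DESeq2 fitted to all libraries (adjusted p = 0.279). Reads of the transgene and of the endogenous gene cannot be told apart in these counts. Control mice, which have no active transgene, had 0.101 to 0.744 CPM of *Gpr3* on chow and 0.0687 to 0.622 CPM on HFD, which matches the genotype labels.

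The libraries of HFD C-3BO mice 4 and 5 stood apart from the other 8 C-3BO libraries by transcripts of liver and epididymis. *Alb*, the albumin gene of hepatocytes, had 0.301, 1.62, 0.239, 0.111 and 0.286 CPM in the 5 chow mice and 1.36, 0.564, 1.59, 294 and 272 CPM in the 5 HFD mice. *Lcn8*, a lipocalin gene of the epididymis, was at 0 in 8 of the 10 libraries and at 38.9 and 34.6 CPM in HFD mice 4 and 5. The 26 hepatocyte markers summed to 77.9 to 189.9 CPM on chow and to 97.9, 101, 143, 687 and 689.7 CPM in the 5 HFD mice, and 7 of the 26 were at 0 in all chow mice. Of the 24 hepatocyte markers tested, 21 were higher on HFD by the test described below, and 0 were when HFD mice 4 and 5 were left out (3 at an unadjusted p under 0.05). All 3 epididymis markers tested were higher (10 markers listed, summed to 0 to 0.136 CPM in the other 8 C-3BO libraries and to 64.2 and 60.005 CPM in these 2), and 0 were without the 2 libraries (0 at an unadjusted p under 0.05). The 6 genes whose log2 fold change moved most between these fits were *Lcn8*, *Lcn9*, *Gpx5*, *Mat1a*, *Fga* and *Gc*, which are transcripts of epididymis or liver. For *Mat1a*, the hepatic methionine adenosyltransferase, the log2 fold change went from 9.32 (adjusted p = 0.00254) to 1.98 (adjusted p = 0.359). Each result below was therefore computed with and without HFD mice 4 and 5.

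Skeletal muscle transcripts were lower on HFD than on chow. The 17 muscle markers, which include the sarcomere and calcium-handling genes of striated fibres, summed to 488, 4303, 1789.9, 1509.6 and 4021 CPM in the 5 chow mice and to 89.9, 95.5, 92.1, 208 and 167 CPM in the 5 HFD mice. The lowest chow sum lay above the highest HFD sum. Of the 17 markers, 16 fell, and the exception was *Mb*, the oxygen-binding protein myoglobin (log2 fold change -0.21 (adjusted p = 0.843)). In a bulk sample, fewer cells of a type and less RNA per cell cannot be told apart. Control mice showed the same difference in muscle markers, with 867 to 11491 CPM on chow and 40.6 to 273 CPM on HFD. It did not hold across the series. The injected mice were, per the methods, control littermates of I-3BO mice, a separate line with inducible *Gpr3*. With saline the sums overlapped, at 48.3 to 2741 CPM on chow and 54.1 to 2299.6 CPM on HFD. With the β3-adrenergic agonist CL they were 56.2 to 214 CPM on chow and 138 to 828 CPM on HFD. In C-3BO mice diet and muscle transcripts thus separate the same libraries, and what set these sums was not tested. The 12 lowest log2 fold changes among genes that met every naming criterion were all of muscle genes, namely *Myh1*, *Ppp1r3a*, *Ckm*, *Smtnl1*, *Myot*, *Cacna1s*, *Myoz1*, *Ttn*, *Tnni1*, *Xirp2*, *Mybpc1* and *Klhl31*, from -7.17 for the fast myosin *Myh1* to -6.32 for *Klhl31*. *Ckm*, the creatine kinase of muscle, had 43.6, 429.7, 211, 163 and 410.0 CPM in the 5 chow mice and 1.90, 0.564, 0.734, 3.87 and 4.10 CPM in the 5 HFD mice. A fit with the mean log2 CPM of the muscle markers as a covariate was added after these values were seen. Since this covariate separates the C-3BO diet groups, standard errors can grow with it, as from 0.31 to 0.60 for *Gpr3*, and a lost call does not by itself mean a smaller change, so log2 fold changes are given with it. Of the 12 genes only *Ckm* still passed, at -1.12 (adjusted p = 0.0413), and *Mb* then had 3.00 (adjusted p = 0.000136). *Ckm* and *Mb* are themselves among the 17 markers of the covariate. Their values with it are therefore set against a score that contains them, and are no independent result on diet.

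**Figure D1:**
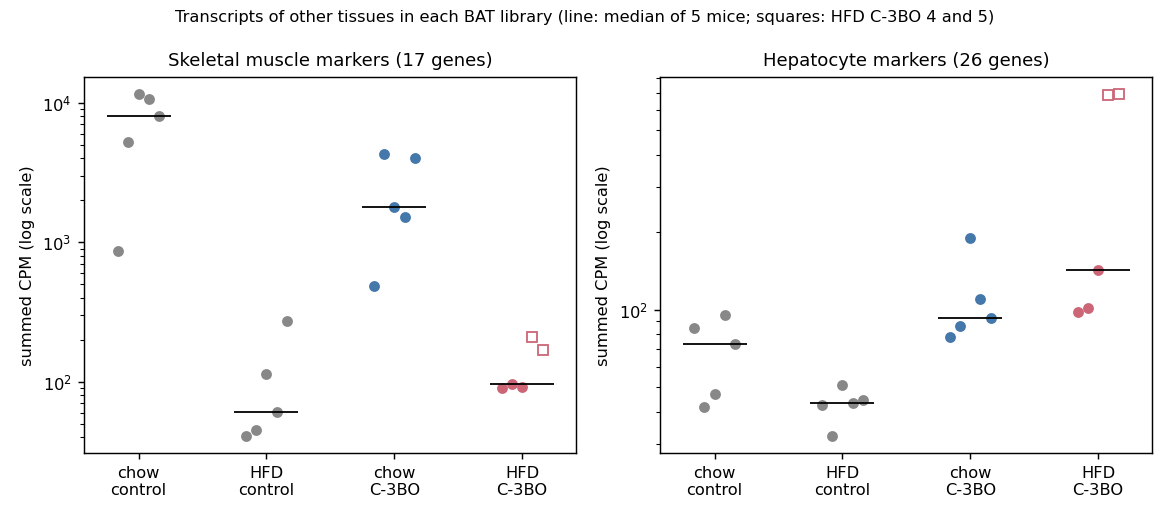
Summed CPM (log axis) of skeletal muscle markers (left) and hepatocyte markers (right) in each library of the control and C-3BO groups on chow and HFD, with a point per mouse, a line at the median of 5 mice and open squares for HFD C-3BO mice 4 and 5. These reach 687 and 689.7 CPM of hepatocyte markers, and the muscle sums of C-3BO mice are 488 to 4303 CPM on chow and 89.9 to 208 CPM on HFD.

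The diets were compared by the quasi-likelihood test of edgeR in the 13277 genes that passed a filter on counts, and p-values carry Benjamini-Hochberg adjustment. In the text a gene rose or fell at an adjusted p under 0.05, and it is called more than 2-fold different where the log2 fold change also passed 1 or -1. On HFD, 1791 genes rose (13.5% of those tested) and 1617 fell (12.2%). Of these, 321 were more than 2-fold higher (2.42%) and 449 more than 2-fold lower (3.38%). These are the shares against which the counts of each gene list below stand. Over every tested gene the median log2 fold change was 0.03.

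Leaving out HFD mice 4 and 5 left 13549 genes tested, of which 1148 rose (8.47%) and 1144 fell (8.44%). More than 2-fold higher were 177 (1.31%) and more than 2-fold lower were 422 (3.11%). Shared by both fits were 149 genes higher and 361 lower by more than 2-fold. Among these 510 genes, 387 had no overlap between the 5 HFD and the 5 chow mice, 114 of them higher and 273 lower. Over all tested genes, 8.44% were higher and 7.53% lower in every HFD mouse than in every chow mouse. With the muscle covariate, 189 of the 321 higher and 160 of the 449 lower genes kept their call.

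The scaling of the libraries bears on the balance of directions. With TMM factors 41.7% of the more than 2-fold different genes were higher on HFD, and with library totals alone 60.1% were, since the median of all tested genes then moved from 0.03 to 0.21. The medians of the respiratory chain, lipolysis, clock, proteasome, antioxidant, collagen, creatine, macrophage and lymphocyte lists described below turned from below to above 0 with library totals. Without HFD mice 4 and 5 the share was 29.5%.

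**Figure D2:**
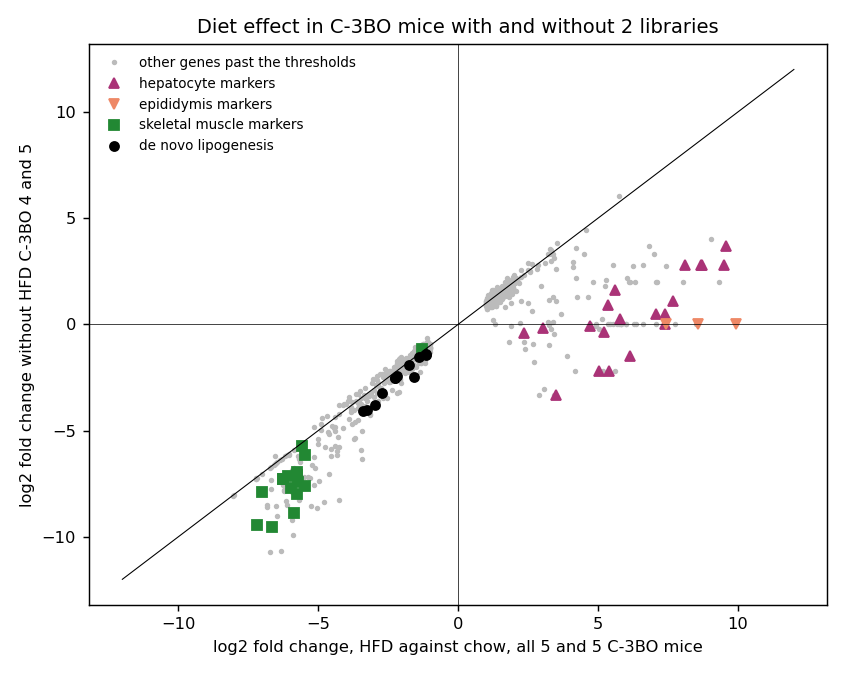
Log2 fold change, HFD against chow in C-3BO mice, of the genes more than 2-fold different with all 10 libraries (x axis) and their values without HFD mice 4 and 5 (y axis), with 4 marker and pathway lists in colour and a line where both are equal. Lipogenesis genes lie near this line but mostly below it, as *Fasn* does (-3.24 with all mice and -4.02 without HFD mice 4 and 5). The hepatocyte and epididymis markers lie to the right of the line, the latter at 0.00 on the y axis.

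De novo lipogenesis had the lowest median log2 fold change of the pathway lists examined. Of the 24 tested genes of this list, 17 fell and 0 rose, with a median log2 fold change of -1.07, against 0.03 and 12.2% falling over all tested genes. The promoters of 3 of these genes are shown because they are among the most strongly lowered members and share the CCAAT box, the letters bound by the factor NF-Y, which acts beside SREBP at many lipid genes. *Fasn* encodes fatty acid synthase, *Acly* the ATP citrate lyase that makes cytosolic acetyl-CoA, and *Slc25a1* the carrier that brings citrate out of mitochondria. Each sequence runs 5′ to 3′ from 250 bases before to 50 bases after the RefSeq start in GRCm38.p6, with CCAAT on either strand in capitals. They lie on the minus strand at chr11:120824498-120824797, chr11:100527951-100528250 and chr16:17928170-17928469.
Fasn: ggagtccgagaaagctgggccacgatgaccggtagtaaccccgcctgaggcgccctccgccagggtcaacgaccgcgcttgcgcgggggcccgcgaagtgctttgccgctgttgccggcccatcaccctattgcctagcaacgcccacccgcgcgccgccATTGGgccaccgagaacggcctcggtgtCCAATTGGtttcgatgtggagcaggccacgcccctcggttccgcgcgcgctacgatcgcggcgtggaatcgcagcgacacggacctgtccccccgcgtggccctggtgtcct
Acly: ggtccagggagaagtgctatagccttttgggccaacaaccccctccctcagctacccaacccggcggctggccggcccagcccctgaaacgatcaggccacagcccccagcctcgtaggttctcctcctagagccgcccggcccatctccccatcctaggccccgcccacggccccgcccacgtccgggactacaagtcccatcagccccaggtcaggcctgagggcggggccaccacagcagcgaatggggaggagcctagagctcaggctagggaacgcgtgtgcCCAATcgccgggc
Slc25a1: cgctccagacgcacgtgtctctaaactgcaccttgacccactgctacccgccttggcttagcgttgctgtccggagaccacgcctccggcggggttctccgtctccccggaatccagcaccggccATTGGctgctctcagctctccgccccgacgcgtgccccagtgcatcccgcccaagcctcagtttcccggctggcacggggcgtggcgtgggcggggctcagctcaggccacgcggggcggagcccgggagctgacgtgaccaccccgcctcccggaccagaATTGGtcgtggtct
RefSeq promoters were matched for 10572 of the 13277 tested genes. CCAAT was found on either strand in 15 of the 21 matched lipogenesis genes (71.4%) and in 42.6% of all matched genes. The sterol regulatory element TCACNCCAC was found in 1 of the 21 and in 1.40% of all. CCAAT was not found for the matched gene *Acaca* (log2 fold change -3.38). It was found for *Srebf1* (-0.40) and *Gpam* (-0.11), which did not pass the test. A match is a description of these letters in this window.

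*Fasn* (NM_007988, chromosome 11, 120667272 to 120685861 in mm9) had 42843, 47443, 48585, 37404 and 47945 CPM in the 5 chow mice and 5036, 1214, 2052, 10484 and 4899 CPM in the 5 HFD mice. Every HFD mouse lay far below every chow mouse, and HFD mouse 4 had the highest level of the 5. The log2 fold change was -3.24 (standard error 0.51, adjusted p = 1.12e-05), and -4.02 (adjusted p = 2.32e-05) without HFD mice 4 and 5. *Acaca* (NM_133360, chromosome 11, 84008940 to 84215153), the acetyl-CoA carboxylase that makes malonyl-CoA and commits carbon to fatty acids, had 1789, 2078, 2086, 1401 and 2009 CPM in the 5 chow mice and 142, 94.4, 99.1, 354 and 209.9 CPM in the 5 HFD mice. On the log2 scale the change was -3.38 (standard error 0.37, adjusted p = 2.75e-08), or a 10.4-fold lower level. *Acly* had 3711 to 8209 CPM on chow and 232 to 1854 CPM on HFD, with a log2 fold change of -2.98 (adjusted p = 1.23e-05).

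*Scd1* (NM_009127, chromosome 19, 44468940 to 44482199), the desaturase that makes oleate and palmitoleate, had 112629, 145625, 137738, 82004 and 112955 CPM in the 5 chow mice and 11209.6, 10278, 15789, 28689 and 24109.6 CPM in the 5 HFD mice. Scaled by exon length it stood at 24435 CPM per kilobase on chow, above *Fasn* at 4512 and *Ucp1* at 3913. On HFD the same scale put *Ucp1* first at 8527, with *Scd1* at 3724 and *Fasn* at 477. The log2 fold change of *Scd1* was -2.71 (standard error 0.38, adjusted p = 2.49e-06).

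The genes that feed the pathway fell with it. *Slc25a1* had 888 to 1768 CPM on chow and 173 to 350.4 CPM on HFD, with a log2 fold change of -2.27 (adjusted p = 2.24e-08). *Me1*, the malic enzyme that makes NADPH, had a log2 fold change of -2.27 (adjusted p = 2.03e-06) and *Pgd* of the pentose phosphate pathway one of -1.16 (adjusted p = 0.00123). *Tkt*, the transketolase of the same pathway, changed by -1.76 (adjusted p = 1.41e-07). *Acss2*, which makes acetyl-CoA from acetate, changed by -2.19 (adjusted p = 1.33e-07). The lipogenic regulator *Thrsp* changed by -1.40 (adjusted p = 3.18e-05), and *Elovl6*, which elongates palmitate, by -1.15 (adjusted p = 0.00234).

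The transcription factor genes *Srebf1* and *Mlxipl* differed less than the enzyme genes described above. *Srebf1*, which encodes SREBP1, had a log2 fold change of -0.40 (adjusted p = 0.159). *Mlxipl*, which encodes the glucose-responsive factor ChREBP, had -0.43 (adjusted p = 0.0506), and it fell without HFD mice 4 and 5, at -0.60 (adjusted p = 0.0241). *Gpam*, the first enzyme of glycerolipid synthesis, had -0.11 (adjusted p = 0.638). Without HFD mice 4 and 5, 19 of the 24 list members fell and the median was -1.41. With the muscle covariate 15 fell.

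**Figure D3:**
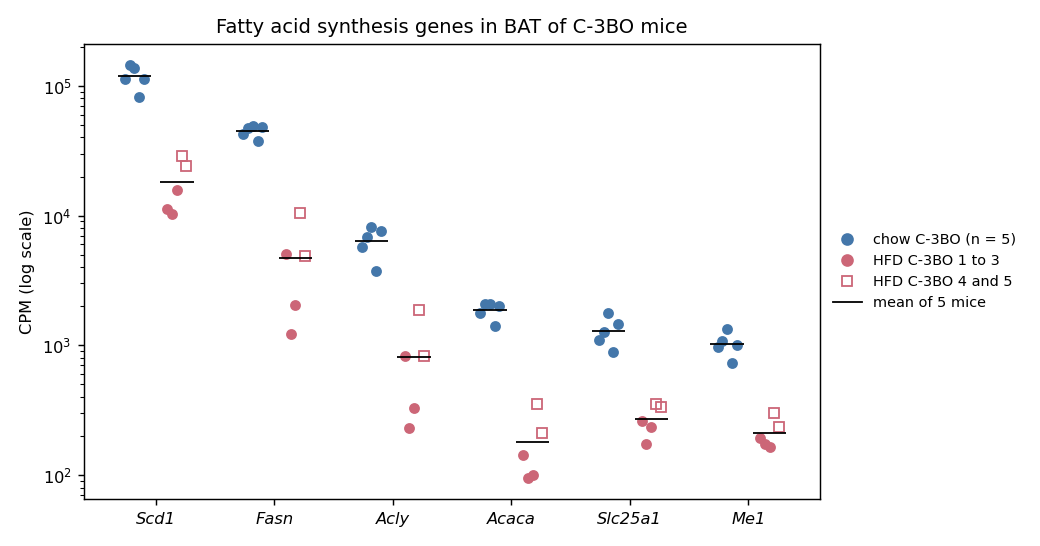
CPM (log axis) of 6 genes of fatty acid synthesis in each C-3BO mouse, chow beside HFD, with a point per mouse, open squares for HFD mice 4 and 5 and a line at the mean of 5 mice. The groups do not overlap for *Fasn* (37404 CPM or more on chow, 10484 CPM or less on HFD), *Acaca* and *Scd1*.

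Elongation and desaturation followed in part, with 9 of 24 genes lower and 2 higher (median -0.32). Without HFD mice 4 and 5, 8 were lower and 0 higher, and with the muscle covariate 5 and 0. *Elovl5*, which elongates polyunsaturated fatty acids, had a log2 fold change of -0.99 (adjusted p = 5.19e-06), and *Scd2* had -1.59 (adjusted p = 0.00679), which the muscle covariate took to -1.38 (adjusted p = 0.0818). *Elovl2*, an elongase of the liver, had 2.22 (adjusted p = 0.0312) with all mice and 0.07 (adjusted p = 0.973) without HFD mice 4 and 5, and 2.99 (adjusted p = 0.0501) with the muscle covariate. *Acsl5*, which activates fatty acids to acyl-CoA, fell, with a log2 fold change of -1.82 (adjusted p = 3.21e-06).

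Cholesterol synthesis was lowered in fewer genes and by less. Of 23 tested genes 11 fell and 0 rose, with a median of -0.47, and 12 fell and 1 rose without HFD mice 4 and 5. With the muscle covariate 5 fell and 1 rose. *Fdft1*, the squalene synthase, had 102, 77.1, 99.1, 74.2 and 103 CPM in the 5 chow mice and 30.6, 29.7, 30.2, 28.1 and 20.5 CPM in the 5 HFD mice, without overlap. The test gave a log2 fold change of -1.70 (standard error 0.16, adjusted p = 3.63e-10). *Lss*, *Pmvk* and *Fdps*, enzymes of the same route, had -1.02, -1.03 and -0.98, with adjusted p = 2.68e-05, 0.000652 and 0.000597. The changes of *Nsdhl* (-0.73), *Mvd* (-0.82), *Sqle* (-0.71) and *Insig1* (-0.78) passed the test with all mice and failed it with the muscle covariate, at -0.49 (adjusted p = 0.185), -0.42 (adjusted p = 0.491), -0.42 (adjusted p = 0.358) and -0.81 (adjusted p = 0.0565). The value of *Insig1* was no smaller with the covariate. *Ebp*, a sterol isomerase, had 0.29 (adjusted p = 0.0549), which passed without HFD mice 4 and 5 at 0.35 (adjusted p = 0.041) and with the covariate at 0.46 (adjusted p = 0.0311). CCAAT was present in 15 of the 16 matched promoters of this list (93.8%).

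Transcripts of several steps of glucose use were lower on HFD, and muscle is known to express many of these genes too. Of 27 tested genes of glucose uptake and glycolysis, 11 fell and 1 rose (median -0.38), and 11 fell and 0 rose without HFD mice 4 and 5. With the muscle covariate 5 fell and 1 rose. *Aldoc* had a log2 fold change of -2.63 (adjusted p = 0.000121) and *Gpi1* of -0.89 (adjusted p = 6.48e-05), both also lower with the covariate, at -3.45 and -0.69. *Aldoa* had -1.15 (adjusted p = 2.22e-05) and -0.84 (adjusted p = 0.0106) with the covariate. *Eno3* and *Pfkm*, isoforms of muscle, had -3.19 and -0.70, and with the covariate -0.73 (adjusted p = 0.136) and -0.15 (adjusted p = 0.535). *Slc2a4*, the insulin-regulated glucose transporter GLUT4, had -0.40 (adjusted p = 0.0987) and fell without HFD mice 4 and 5, at -0.71 (adjusted p = 0.00775). *Txnip*, a glucose-induced inhibitor of glucose uptake, fell, with a log2 fold change of -0.95 (adjusted p = 0.000609). *Hk2*, a hexokinase, had -0.24 (adjusted p = 0.54).

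Pyruvate dehydrogenase admits pyruvate to the citric acid cycle, and its kinases switch it off. Of the 11 genes tested, 3 fell and 0 rose (median -0.23), with the same counts without HFD mice 4 and 5 and with the covariate. *Pdk1*, a kinase, had 412, 367, 426, 361 and 377 CPM in the 5 chow mice and 136, 141, 139.6, 182 and 119.8 CPM in the 5 HFD mice. This is a log2 fold change of -1.44 (standard error 0.14, adjusted p = 1.34e-09), without overlap between the groups. The subunits *Pdha1* and *Dlat* had -0.65 and -0.52 (adjusted p = 5.27e-05 and 0.00259), and *Pdk4*, the kinase that fasting raises, had -0.37 (adjusted p = 0.384). Under library totals, 3 genes of the list rose and 3 fell, with a median of -0.04.

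Glycogen genes fell in 9 of 17 and rose in 0 (median -0.45), also without HFD mice 4 and 5, and in 4 of 17 with the covariate. *Pygl*, the liver-type glycogen phosphorylase that brown fat expresses, had 1035, 1199, 1425, 902 and 1117 CPM in the 5 chow mice and 378, 248, 289, 608 and 366 CPM in the 5 HFD mice. Its log2 fold change was -1.59 (standard error 0.24, adjusted p = 8.17e-06). *Ugp2* and *Gbe1*, which make UDP-glucose and branch glycogen, had -0.95 and -0.78, and kept adjusted p = 0.00526 and 0.00752 with the covariate. The muscle forms *Pygm* and *Phkg1* had -3.33 and -1.76, and 0.23 (adjusted p = 0.738) and 0.08 (adjusted p = 0.931) with the covariate. Of the 7 creatine genes tested, 2 rose and 2 fell. *Ckb*, the creatine kinase of brown fat, had 1.05 (adjusted p = 0.00374) and *Ckmt2*, the mitochondrial kinase of muscle, -5.17 (adjusted p = 0.000829) and 0.46 (adjusted p = 0.624) with the covariate.

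Fatty acid oxidation moved the other way, by smaller amounts. Of 28 tested mitochondrial genes 11 rose and 0 fell, with a median of 0.24, against 0.03 and 13.5% rising over all tested genes. Without HFD mice 4 and 5, 9 rose, and with the muscle covariate 9 rose. *Cpt1a* and *Cpt1b*, the liver and muscle forms of the carnitine palmitoyltransferase that admits acyl groups to mitochondria, had 0.93 (adjusted p = 8.23e-06) and 0.81 (adjusted p = 1.07e-06). *Etfa*, which takes electrons from acyl-CoA dehydrogenases, had 0.76 (adjusted p = 7.94e-08). *Slc25a42*, a mitochondrial coenzyme A carrier, had 0.76 (adjusted p = 0.00595). *Acadm*, the medium-chain acyl-CoA dehydrogenase, had 0.23 (adjusted p = 0.145).

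Peroxisomal oxidation had 4 of 29 genes higher and 1 lower (median 0.12), a share of higher genes near the 13.5% of all tested genes. *Cyp4a10* and *Cyp4a14*, fatty acid hydroxylases of liver and kidney, had 2.40 (adjusted p = 0.0158) and 3.24 (adjusted p = 0.000462) with all mice and -1.14 (adjusted p = 0.354) and -0.02 (adjusted p = 0.993) without HFD mice 4 and 5. The number of higher genes was then 2. *Crot*, which makes acyl-carnitines in peroxisomes, fell, with a log2 fold change of -0.53 (adjusted p = 0.00017), and *Ehhadh* had -0.70 (adjusted p = 0.316). Among 7 ketone body genes only *Oxct1*, which uses ketone bodies, rose, by 0.63 (adjusted p = 2.38e-06).

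Genes that take up and carry fatty acids rose in 6 of 18 and fell in 2 (median 0.17), and rose in 5 and fell in 0 without HFD mice 4 and 5. *Fabp3*, the fatty acid binding protein of heart and brown fat, had 135, 129.9, 169, 96.5 and 99.5 CPM in the 5 chow mice and 345, 408, 386, 387 and 350.0 CPM in the 5 HFD mice. The fitted log2 fold change was 1.57 (standard error 0.19, adjusted p = 1.33e-07), with no overlap and little spread among the HFD mice. *Cd36*, *Lpl* and *Scarb1*, which bring lipid into the cell or free it from lipoproteins, had 0.43, 0.57 and 0.64, with adjusted p = 0.000913, 0.00833 and 3.6e-05.

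PPAR target genes rose in 8 of 30 and fell in 2 (median 0.24), and in 6 and 2 without HFD mice 4 and 5. *Vnn1*, the pantetheinase, had 1.05 to 3.94 CPM on chow and 4.07 to 8.40 CPM on HFD and a log2 fold change of 1.48 (adjusted p = 0.00065). *Angptl4* and *Ucp3*, which fatty acids induce through PPARs in other settings, had -0.54 (adjusted p = 0.256) and 0.36 (adjusted p = 0.512), and *Ppara* itself had -0.18 (adjusted p = 0.466).

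Triglyceride synthesis and lipid droplet genes rose in 6 of 30 and fell in 3 (median 0.13), with the same counts without HFD mice 4 and 5. *Gyk*, the glycerol kinase that lets brown fat reuse glycerol, had 133, 122, 133, 206 and 129.7 CPM in the 5 chow mice and 448, 469, 432, 708 and 476 CPM in the 5 HFD mice. On the log2 scale the change was 1.81 (standard error 0.33, adjusted p = 9.7e-05), and all 5 HFD mice lay above all 5 chow mice. *Lpin3*, *Agpat9* and *Dgat2*, enzymes of triglyceride assembly, had 1.06, 0.90 and 0.84 (adjusted p = 6.17e-05, 0.00166 and 0.000757). *Gpd2*, the mitochondrial glycerol phosphate dehydrogenase, fell, with a log2 fold change of -0.82 (adjusted p = 0.000155), and *Fitm1*, a droplet gene of muscle, had -4.31 (adjusted p = 0.00465) and 0.32 (adjusted p = 0.899) with the covariate. *Plin2* and *Plin5* had -0.31 (adjusted p = 0.362) and 0.32 (adjusted p = 0.1).

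Lipolysis genes rose in 1 of 16 and fell in 3 (median -0.04), in 1 and 1 without HFD mice 4 and 5 and in 2 and 0 with the muscle covariate. *G0s2*, an inhibitor of the lipase ATGL, rose, with a log2 fold change of 1.09 (adjusted p = 0.0105), and had 0.87 (adjusted p = 0.0938) without HFD mice 4 and 5. *Pnpla2*, which encodes ATGL, had -0.03 (adjusted p = 0.851). *Lipe*, the hormone-sensitive lipase, *Hcar2*, the receptor through which nicotinic acid restrains lipolysis, and *Adora1*, the adenosine receptor that does the same, had -0.28, -1.24 and -0.40 (adjusted p = 0.0213, 0.00729 and 0.0147). None of the 3 passed without HFD mice 4 and 5, at -0.25 (adjusted p = 0.103), -1.02 (adjusted p = 0.0716) and -0.32 (adjusted p = 0.12). Nor did any with the muscle covariate, at -0.31 (adjusted p = 0.0797), -1.09 (adjusted p = 0.0976) and -0.37 (adjusted p = 0.121).

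*Ucp1*, the uncoupling protein that makes brown fat thermogenic, rose further on HFD in mice that already had high levels on chow. Its promoter is shown because the cyclic AMP signal of GPR3 is known to reach this gene, and TGACG, the core of each arm of the cyclic AMP response element, is in capitals. The sequence lies at chr8:83290098-83290397 on the plus strand of GRCm38.p6 (RefSeq).
Ucp1: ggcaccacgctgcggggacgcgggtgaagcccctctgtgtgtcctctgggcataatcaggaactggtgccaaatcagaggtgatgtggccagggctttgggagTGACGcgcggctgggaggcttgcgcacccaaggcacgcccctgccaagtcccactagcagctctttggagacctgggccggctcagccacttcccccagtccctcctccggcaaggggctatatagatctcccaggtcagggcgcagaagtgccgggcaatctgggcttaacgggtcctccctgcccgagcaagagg
TGACG was found on either strand in 7 of the 19 matched thermogenesis genes (36.8%) and in 34.1% of all matched genes. *Ucp1* (NM_009463, chromosome 8, 85814247 to 85822355 in mm9) had 5787, 5382, 7537, 7065 and 6391 CPM in the 5 chow mice and 12341, 15066, 13463, 15797 and 13429 CPM in the 5 HFD mice. The groups did not overlap, and the log2 fold change was 1.12 (standard error 0.26, adjusted p = 0.00171), with 1.08 (adjusted p = 0.0114) without HFD mice 4 and 5 and 1.22 (adjusted p = 0.0144) with the muscle covariate. In control mice *Ucp1* rose from 1116 to 1377 CPM on chow to 2573 to 9443 CPM on HFD, with a log2 fold change of 1.98 (adjusted p = 6.38e-07). The difference between the diet effects of the genotypes was -0.86 (standard error 0.37, adjusted p = 0.243), so a difference was not shown.

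Of 26 tested thermogenesis genes 8 rose and 2 fell with a median of 0.18, and 4 rose and 1 fell without HFD mice 4 and 5. The muscle covariate gave 8 and 0. *Dio2*, the deiodinase that activates thyroid hormone inside brown adipocytes, had 18.4, 70.4, 80.0, 77.4 and 96.7 CPM in the 5 chow mice and 181, 111, 197, 254 and 189 CPM in the 5 HFD mice. The test gave a log2 fold change of 1.44 (standard error 0.43, adjusted p = 0.0115), and 1.25 (adjusted p = 0.0703) without HFD mice 4 and 5. *Ppargc1a*, *Cidea*, *Prdm16* and *Adrb3*, a coactivator, a droplet protein, a brown fat regulator and the main β-adrenergic receptor of adipocytes, had -0.04, 0.08, 0.17 and -0.05 (adjusted p = 0.885, 0.703, 0.513 and 0.883). *Ppargc1b* fell, with a log2 fold change of -0.53 (adjusted p = 0.00797) and had -0.40 (adjusted p = 0.105) without HFD mice 4 and 5 and -0.36 (adjusted p = 0.218) with the muscle covariate. *Zic1*, a marker of the brown lineage, rose, with a log2 fold change of 0.99 (adjusted p = 0.00557), with 0.63 (adjusted p = 0.223) under the muscle covariate. Of the 15 brown adipocyte markers 4 rose and 0 fell (median 0.14), and 2 rose without HFD mice 4 and 5.

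Among 38 genes of Gs and cyclic AMP signalling 8 rose and 3 fell (median 0.07), against 13.5% and 12.2% of all tested genes, and 7 rose and 2 fell without HFD mice 4 and 5. The counts were 3 and 1 with the muscle covariate and 15 and 1 with library totals. *Adcy3*, the adenylyl cyclase, had 209.6, 175, 184, 279 and 225 CPM in the 5 chow mice and 481, 644, 416, 567 and 444 CPM in the 5 HFD mice. This is a log2 fold change of 1.25 (standard error 0.19, adjusted p = 9.05e-06), and it had -0.03 (adjusted p = 0.917) in control mice. *Adcy4*, another cyclase, and *Gnas*, the Gs subunit, had 0.98 (adjusted p = 3.52e-06) and 0.59 (adjusted p = 0.0036). The phosphodiesterase genes *Pde4b* and *Pde7b*, whose products break down cyclic AMP, had 1.19 (adjusted p = 0.00102) and 0.82 (adjusted p = 0.00272), and 0.84 (adjusted p = 0.0898) and 0.72 (adjusted p = 0.0656) with the muscle covariate. *Pkia*, an inhibitor of protein kinase A that muscle also expresses, had 6.18, 31.9, 13.9, 14.2 and 30.1 CPM in the 5 chow mice and 3.54, 3.39, 4.04, 3.46 and 2.25 CPM in the 5 HFD mice. Its log2 fold change was -2.50 (adjusted p = 0.00112), and -1.35 (adjusted p = 0.183) with the muscle covariate. *Per1* and *Crem*, which cyclic AMP induces, had 1.04 (adjusted p = 0.00328) and 0.46 (adjusted p = 0.0335). These were 0.91 (adjusted p = 0.0623) and 0.32 (adjusted p = 0.324) with the muscle covariate, and *Crem* had 0.47 (adjusted p = 0.0703) without HFD mice 4 and 5. *Nr4a1*, which cyclic AMP also induces, had -0.20 (adjusted p = 0.847).

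The 12 highest log2 fold changes among genes that met every naming criterion belonged to *Dusp15*, *Sgk2*, *Azgp1*, *Emb*, *Hcn2*, *Pon1*, *Cntfr*, *Nnmt*, *Sult5a1*, *Lppr4*, *Gfra1* and *Rasl10a*. *Dusp15* (NM_001159376, chromosome 2, 152766731 to 152777318 in mm9), a dual specificity phosphatase, had 1.36, 0.231, 1.08, 1.44 and 0.859 CPM in the 5 chow mice and 14.4, 27.0, 24.7, 29.9 and 22.3 CPM in the 5 HFD mice. It was low on chow and higher in every HFD mouse, with a log2 fold change of 4.56 (standard error 0.45, adjusted p = 1.61e-09). *Hcn2* (NM_008226, chromosome 10, 79179379 to 79198853), a cation channel opened by hyperpolarisation and by cyclic AMP, had 9.04, 7.76, 5.14, 13.7 and 11.2 CPM in the 5 chow mice and 82.2, 121, 79.3, 116 and 87.7 CPM in the 5 HFD mice. The fitted log2 fold change was 3.37 (standard error 0.25, adjusted p = 4.17e-12), a 10.4-fold higher level, with 3.33 (adjusted p = 3.61e-10) without HFD mice 4 and 5.

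*Pon1*, the paraoxonase best known from liver, had 3.92, 2.55, 3.94, 7.20 and 7.88 CPM in the 5 chow mice and 46.7, 51.1, 54.9, 49.9 and 54.3 CPM in the 5 HFD mice. The range of HFD mice 1 to 3, with few liver transcripts, held the levels of mice 4 and 5, and the log2 fold change without the latter was 3.32 (adjusted p = 4.78e-09) against 3.33 (adjusted p = 1.54e-10) with them. *Nnmt*, which methylates nicotinamide with S-adenosylmethionine, had 13.1, 15.6, 23.5, 34.0 and 13.3 CPM in the 5 chow mice and 108, 118, 123, 137 and 114 CPM in the 5 HFD mice and a log2 fold change of 2.58 (adjusted p = 2.76e-08). *Cntfr*, the receptor for ciliary neurotrophic factor, had 9.95, 4.63, 9.08, 15.1 and 8.88 CPM in the 5 chow mice and 69.1, 124, 93.8, 66.8 and 90.7 CPM in the 5 HFD mice. It changed by 3.22 (adjusted p = 1.48e-07), again without overlap.

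*Sgk2*, a kinase of the serum- and glucocorticoid-regulated family, had 0.810 to 3.32 CPM on chow and 8.56 to 40.2 CPM on HFD, with a log2 fold change of 3.53 (adjusted p = 4.24e-05). *Emb*, which encodes embigin, a partner of monocarboxylate transporters, had 0.754 to 2.21 CPM on chow and 7.22 to 35.9 CPM on HFD and changed by 3.44 (adjusted p = 5.7e-08). *Sult5a1*, a sulfotransferase, was at 4.76 to 6.55 CPM in HFD mice 1 to 3 and at 20.1 and 29.3 CPM in mice 4 and 5, so its log2 fold change of 2.26 became 1.11 (adjusted p = 0.00524) without these mice. For *Azgp1*, zinc-α2-glycoprotein, which liver also secretes, it went from 3.49 to 2.63 (adjusted p = 0.00206). The GDNF receptor gene *Gfra1*, *Lppr4* and *Rasl10a* had 2.10, 2.26 and 2.02 (adjusted p = 1.23e-05, 3.9e-07 and 0.000648). With the muscle covariate all 12 genes remained higher, with adjusted p of at most 0.00906.

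**Figure D4:**
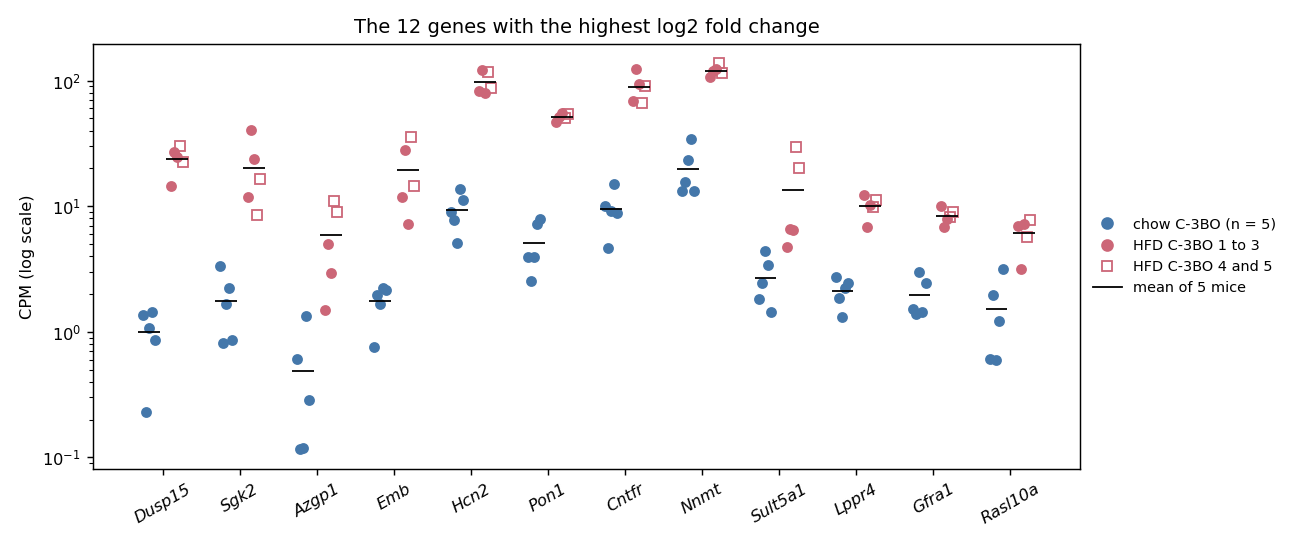
CPM (log axis) in each C-3BO mouse, chow beside HFD, of the 12 genes with the highest log2 fold changes, with a point per mouse, open squares for HFD mice 4 and 5 and a line at the mean of 5 mice. *Hcn2* lies at 5.14 to 13.7 CPM on chow and at 79.3 to 121 CPM on HFD, and *Sult5a1* is highest in HFD mice 4 and 5.

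Genes of ion channels and transporters of adipocytes rose in 6 of 19 tested and fell in 4 (median 0.27), in 4 and 3 without HFD mice 4 and 5 and in 3 and 0 with the muscle covariate. *Cacng5*, a calcium channel subunit gene, had 0, 0, 0, 0 and 0.143 CPM in the 5 chow mice and 1.22, 2.60, 3.79, 1.22 and 1.43 CPM in the 5 HFD mice, so 4 of 5 chow mice were at 0 and no fold is given. Its adjusted p was 1.4e-05, and 0.122 with the muscle covariate. *Atp2a2*, the calcium pump SERCA2, had 0.69 (adjusted p = 0.000449) and *Ryr2*, a calcium release channel, 1.92 (adjusted p = 0.00384). The muscle forms *Atp2a1* and *Ryr1* had -6.08 and -6.25, and -0.29 (adjusted p = 0.659) and -0.67 (adjusted p = 0.428) with the covariate.

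Of 28 secreted factors and adipokines, 4 rose and 3 fell (median 0.22), with 2 and 2 without HFD mice 4 and 5 and 1 and 1 with the muscle covariate. *Retn*, which encodes resistin, had a log2 fold change of -1.51 (adjusted p = 0.000989), and -1.08 (adjusted p = 0.0816) with the muscle covariate. *Nrg4*, a factor of brown adipocytes, fell, with a log2 fold change of -0.58 (adjusted p = 0.000267). *Apln*, the vascular peptide apelin, rose, with a log2 fold change of 1.08 (adjusted p = 0.00504) and had 0.96 (adjusted p = 0.0914) with the muscle covariate. *Lep* and *Adipoq*, leptin and adiponectin, had 1.03 (adjusted p = 0.172) and -0.11 (adjusted p = 0.568), and *Vegfa* had -0.03 (adjusted p = 0.872). *Fgf21* did not pass the filter on counts, with 0 to 1.15 CPM on chow and 0.226 to 1.83 CPM on HFD. *Bmp8b*, a factor that brown fat makes on activation, had 6.33, 7.06, 4.18, 1.88 and 2.15 CPM in the 5 chow mice and 2.45, 1.47, 0.734, 14.5 and 2.46 CPM in the 5 HFD mice, and its value rests on 1 HFD mouse. On the log2 scale the change was -0.09 (adjusted p = 0.941), and -1.48 (adjusted p = 0.116) without HFD mice 4 and 5.

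Nuclear genes of the respiratory chain were little different by diet in C-3BO mice. Of 74 tested subunits 6 rose and 4 fell with a median of -0.03, and 3 rose and 3 fell without HFD mice 4 and 5. This direction depends on the scaling, since with library totals 27 rose and 1 fell with a median of 0.15, against 0.21 for all tested genes. *Cox7c* had 0.64 (adjusted p = 0.0159) and *Cox6a2*, the isoform of muscle and brown fat, -6.21 (adjusted p = 0.000513), and with the covariate 0.55 (adjusted p = 0.164) and -0.28 (adjusted p = 0.827). Of 18 genes of the citric acid cycle 4 rose and 1 fell (median 0.07), and 3 and 1 without HFD mice 4 and 5. *Idh2* and *Mdh2*, dehydrogenases of the cycle, had 0.76 (adjusted p = 2e-06) and 0.47 (adjusted p = 0.000371), and *Pcx*, the pyruvate carboxylase that refills it, had -0.67 (adjusted p = 1.84e-05). Of 23 genes that break down branched-chain amino acids 2 rose and 0 fell (median 0.09), *Bckdhb* with 0.51 (adjusted p = 0.000622) and *Mcee* with 0.43 (adjusted p = 0.0164), the latter 0.36 (adjusted p = 0.102) without HFD mice 4 and 5 and 0.49 (adjusted p = 0.063) with the covariate. With library totals 14 of the 18 and 14 of the 23 rose.

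Interferon response genes leaned upward. Of 30 tested genes 9 rose and 0 fell, with a median of 0.54, and 6 rose without HFD mice 4 and 5 (median 0.52). Under the muscle covariate 1 rose. The promoter of *Rsad2*, which encodes the antiviral enzyme viperin, is shown with the core of the interferon-stimulated response element, a pair of GAAA with 2 bases of any kind between, on either strand in capitals. It lies at chr12:26456403-26456702 on the minus strand of GRCm38.p6 (RefSeq).
Rsad2: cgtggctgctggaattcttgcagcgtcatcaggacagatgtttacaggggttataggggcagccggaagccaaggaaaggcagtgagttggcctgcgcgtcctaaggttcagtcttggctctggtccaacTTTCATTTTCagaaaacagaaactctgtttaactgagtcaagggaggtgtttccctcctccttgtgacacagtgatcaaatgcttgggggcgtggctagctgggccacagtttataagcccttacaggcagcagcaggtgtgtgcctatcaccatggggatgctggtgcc
These letters were found in 14 of 24 matched interferon genes (58.3%) and in 3.73% of all matched genes. *Rsad2* had 29.2, 22.6, 16.4, 39.2 and 39.1 CPM in the 5 chow mice and 41.2, 63.1, 53.8, 70.7 and 38.3 CPM in the 5 HFD mice, and HFD mouse 5 lay within the chow range. The test gave a log2 fold change of 0.87 (adjusted p = 0.0018), and 0.55 (adjusted p = 0.153) with the muscle covariate. *Ifit2* and *Gbp3*, interferon-induced antiviral genes, had 0.92 (adjusted p = 0.00223) and 0.96 (adjusted p = 0.00824), and 0.64 (adjusted p = 0.13) and 0.72 (adjusted p = 0.166) with the covariate. *Irf9*, which carries the interferon signal to DNA, had 0.85 (adjusted p = 0.000475) and 0.69 (adjusted p = 0.0373) with the covariate. *Isg15*, a ubiquitin-like protein, had 0.60 (adjusted p = 0.0873).

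Cell cycle genes leaned upward at low levels. Of 35 tested genes 14 rose and 0 fell, with a median of 0.84, and 8 were more than 2-fold higher. Without HFD mice 4 and 5, 10 rose (median 0.70), and with the muscle covariate 1 rose. *Top2a*, the topoisomerase of dividing cells, had 1.21, 2.08, 1.43, 1.11 and 0 CPM in the 5 chow mice and 4.35, 3.73, 4.53, 5.50 and 4.30 CPM in the 5 HFD mice. The groups did not overlap, with a log2 fold change of 1.88 (adjusted p = 0.00493) and 1.35 (adjusted p = 0.125) with the covariate. *Plk1*, a mitotic kinase, had 0 to 0.996 CPM on chow and 0.611 to 2.05 CPM on HFD and changed by 1.95 (adjusted p = 0.00903), and by 1.18 (adjusted p = 0.236) with the covariate. *Rrm2*, *Cdc20*, *Kif23* and *Cenpe*, genes of nucleotide supply and mitosis, had 1.35, 1.43, 1.52 and 1.33 (adjusted p = 0.00832, 0.0112, 0.0139 and 0.0144). With the covariate they had 1.03, 1.23, 1.19 and 0.93 (adjusted p = 0.149, 0.112, 0.153 and 0.215), and *Cenpe* had 1.27 (adjusted p = 0.0532) without HFD mice 4 and 5. *Mcm3*, a replicative helicase subunit, had 0.98 (adjusted p = 0.00205) and, with the covariate, 1.04 (adjusted p = 0.0192). *Mki67*, the usual proliferation marker, had 0.88 (adjusted p = 0.141). *Ccna2* and *Cenpf* passed with all mice, at 1.16 (adjusted p = 0.0442) and 1.69 (adjusted p = 0.0424). They failed without HFD mice 4 and 5, at 1.09 (adjusted p = 0.127) and 1.54 (adjusted p = 0.136), and with the covariate, at 0.72 (adjusted p = 0.405) and 1.08 (adjusted p = 0.375). CCAAT was found in 24 of 28 matched promoters of this list.

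Markers of other cells were measured alongside. Endothelial and mural markers summed to 1085 to 1892 CPM on chow and 2351 to 2574 CPM on HFD, and 10 of 15 rose (9 without HFD mice 4 and 5, 6 with the muscle covariate). *Pecam1*, *Tie1* and *Cdh5*, endothelial surface genes, had 0.78 (adjusted p = 5.97e-05), 0.88 (adjusted p = 2.82e-05) and 0.64 (adjusted p = 0.000829), the last 0.42 (adjusted p = 0.103) with the covariate. Nerve and Schwann cell markers summed to 253 to 275 CPM on chow and 432 to 643 CPM on HFD, and only *S100b* of 9 tested rose. *S100b*, a calcium-binding protein that brown adipocytes also secrete toward nerves, had 126, 133, 124, 113 and 124 CPM in the 5 chow mice and 350.1, 323, 400.5, 516 and 457 CPM in the 5 HFD mice. This is a log2 fold change of 1.72 (standard error 0.21, adjusted p = 1.62e-07), while the Schwann cell gene *Sox10* had 0.37 (adjusted p = 0.356).

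Macrophage markers rose in 2 of 18 and fell in 0 (among them *Itgax* at 1.47 (adjusted p = 0.0372), and 1.02 (adjusted p = 0.308) with the muscle covariate), and they summed to 192 to 407 CPM on chow and 201 to 240 CPM on HFD. Chow mouse 3 had the highest macrophage and fibroblast sums (407 and 1362 CPM) and the lowest endothelial sum (1085 CPM) of the 10 mice. Of 12 preadipocyte and fibroblast markers 1 rose and 1 fell, the latter *Lum* with -0.77 (adjusted p = 0.00708) and -0.63 (adjusted p = 0.0741) without HFD mice 4 and 5, when 0 of the 12 passed in edgeR's test (2 at an unadjusted p under 0.05). Of 10 white adipocyte markers 1 rose and 1 fell, *Nnat* with 1.29 (adjusted p = 0.0149) and *Retn* as above, and neither passed with the covariate (*Nnat* 1.20 (adjusted p = 0.109)). In edgeR's test 0 of 11 lymphocyte markers passed (1 at an unadjusted p under 0.05, 0 with DESeq2), and nor did the 1 erythroid marker tested. Collagen and matrix genes rose in 6 of 28 and fell in 0 (median -0.05), rose in 5 without HFD mice 4 and 5, and rose in 3 and fell in 1 with the covariate. *Loxl1*, a crosslinker of elastin, had 1.40 (adjusted p = 1.36e-05), and *Col4a2* and *Sparc*, a basement membrane collagen and a matrix protein, had 0.70 (adjusted p = 3.55e-06) and 0.68 (adjusted p = 1.98e-05). The part of cell composition in these differences was not tested.

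The remaining lists hold clock, stress and protein turnover genes. Of 19 clock genes 3 rose and 2 fell, with the same counts without HFD mice 4 and 5. *Rora*, a nuclear receptor of the clock, fell, with a log2 fold change of -0.78 (adjusted p = 0.000103), while *Hlf* and *Nfil3* had 0.85 (adjusted p = 0.00807) and 1.08 (adjusted p = 0.00672). Under the muscle covariate 1 clock gene rose and 2 fell, and *Hlf* had 0.82 (adjusted p = 0.0743). The core genes *Arntl* and *Nr1d1* had -0.02 (adjusted p = 0.986) and -0.19 (adjusted p = 0.28). Of 23 genes of the integrated stress response 4 rose and 1 fell (3 and 0 without HFD mice 4 and 5), among them *Ddit4*, an inhibitor of mTORC1, with 1.39 (adjusted p = 0.000359). Of 22 genes listed for chaperones of the endoplasmic reticulum 5 rose and 1 fell (3 and 1). *Calr* had 0.61 (adjusted p = 1.82e-05), *Hspa5* 0.36 (adjusted p = 0.00139) and *Xbp1*, a transcription factor gene rather than a chaperone, 0.34 (adjusted p = 0.0241). *Xbp1* had 0.33 (adjusted p = 0.0673) without HFD mice 4 and 5 and 0.37 (adjusted p = 0.0831) with the covariate.

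Proteasome subunits fell in 7 of 39 and rose in 0 (median -0.11), fell in 5 without HFD mice 4 and 5 and in 2 with the muscle covariate. With library totals 2 rose and 2 fell, with a median of 0.08. *Psma2* and *Psme4* had -0.42 (adjusted p = 0.00136) and -0.48 (adjusted p = 0.00111), and -0.31 (adjusted p = 0.0956) and -0.39 (adjusted p = 0.0621) with the muscle covariate. Of 30 antioxidant and glutathione genes 3 rose and 6 fell (median -0.11), and 1 rose and 6 fell without HFD mice 4 and 5. The counts were 2 and 2 with the muscle covariate and 6 and 3 with library totals, so the direction of this list depends on the scaling. *Mgst3* and *Gsta3*, glutathione transferases, had -1.16 (adjusted p = 1.62e-07) and -1.19 (adjusted p = 0.0226), and with the covariate -1.26 (adjusted p = 1.06e-05) and -1.10 (adjusted p = 0.144).

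Control littermates gave the diet effect without active *Gpr3* TTG. In these mice 2046 genes rose on HFD (15.4%) and 2320 fell (17.5%), 165 more than 2-fold higher (1.24%) and 647 more than 2-fold lower (4.87%). With library totals the share of the more than 2-fold different genes that were higher went from 20.3% to 38.2%. The diet effect in C-3BO mice minus that in control mice, tested in the same model, was above 0 for 179 genes (1.35%) and below 0 for 97 (0.731%), with 64.9% of them above 0 by TMM factors and 79.3% by library totals. Without HFD C-3BO mice 4 and 5 the counts were 79 (0.583%) and 47 (0.347%). Muscle sums and TMM factors also differed between the genotypes. There were 122 differences above 0 and 80 below 0 with the muscle covariate, with RLE factors 210 and 89, and with library totals 283 and 74.

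Lipogenesis fell in both genotypes, with 17 of 24 genes lower in C-3BO mice and 21 of 24 in control mice, and 0 of the 24 differed between the genotypes in edgeR's test of the difference (2 at an unadjusted p under 0.05, 0 with DESeq2). *Fasn* had a log2 fold change of -3.24 in C-3BO mice and -2.72 (adjusted p = 4.54e-05) in control mice, with a difference of -0.52 (standard error 0.66, adjusted p = 0.775). *Acaca* had -3.38 and -2.41, with a difference of -0.98 (adjusted p = 0.329). Cholesterol synthesis fell in 11 and 16 of 23 genes in C-3BO and control mice.

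Respiratory chain subunits fell in 54 of 74 genes in control mice (median -0.50) and in 4 of 74 in C-3BO mice, and the difference was above 0 for 11 of the 74 with a median of 0.46 (all tested genes 0.02). Without HFD C-3BO mice 4 and 5 it was above 0 for 1 of the 74, with a median of 0.44. *Ndufa9*, a complex I subunit, had 0.14 (adjusted p = 0.346) in C-3BO mice and -0.64 (adjusted p = 1.14e-05) in control mice, with a difference of 0.78 (adjusted p = 0.00223). *Sdhb* of complex II, listed with the citric acid cycle, had 0.14 and -0.52, with a difference of 0.66 (adjusted p = 0.00333). Without HFD C-3BO mice 4 and 5 these 2 differences had adjusted p = 0.0174 and 0.0174. With the muscle covariate *Ndufa9* had -0.52 (adjusted p = 0.0365) in control mice and a difference of 0.74 (adjusted p = 0.00698). The counts of this list in control mice and for the difference were not computed with that covariate or with library totals. Interferon genes rose in 9 of 30 in C-3BO mice and in 1 of 30 in control mice, and 0 of the 30 differed between genotypes in edgeR's test of the difference (12 at an unadjusted p under 0.05, 1 with DESeq2).

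*Elovl3*, an elongase that cold induces in brown fat, separated the genotypes on either diet. It had 402 to 609.9 CPM on chow and 183 to 390.3 CPM on HFD in C-3BO mice and 19.6 to 39.6 CPM on chow and 0.288 to 6.36 CPM on HFD in control mice. Its log2 fold change on HFD was -0.77 (adjusted p = 0.115) in C-3BO mice, which did not pass, and -3.62 (adjusted p = 2.74e-07) in control mice. The difference was 2.85 (standard error 0.59, adjusted p = 0.00517). With the muscle covariate these 3 values were -0.04 (adjusted p = 0.975), -2.56 (adjusted p = 0.00888) and 2.52 (adjusted p = 0.0137). *Hcn2* had 4.21, 5.57, 5.37, 4.03 and 4.39 CPM in the 5 chow control mice and 3.31, 2.58, 5.63, 3.84 and 4.17 CPM in the 5 HFD control mice, so that it rose on HFD in C-3BO mice and had -0.25 (adjusted p = 0.531) in control mice. The difference was 3.63 (standard error 0.38, adjusted p = 1.29e-07), and 3.58 (adjusted p = 2.04e-06) without HFD C-3BO mice 4 and 5. *Dusp15*, 0.506 to 1.57 CPM on chow and 0.0720 to 1.17 CPM on HFD in control mice, had a difference of 5.47 (adjusted p = 8.88e-06).

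The 8 largest differences above 0 among genes that passed in both fits were those of *Mb*, *Dusp15*, *Scn4b*, *Ptgds*, *Sypl2*, *Fndc5*, *Hcn2* and *Ank1*. *Ptgds*, the prostaglandin D synthase, had 211, 326, 38.6, 44.3 and 125 CPM in the 5 chow control mice and 8.35, 14.6, 9.20, 19.5 and 9.42 CPM in the 5 HFD control mice. In C-3BO mice it was already low on chow, at 3.21 to 5.56 CPM on chow and 5.17 to 18.9 CPM on HFD, so its difference of 4.96 (standard error 0.59, adjusted p = 1.69e-06) joins a fall of -3.60 (adjusted p = 1.13e-08) in control mice to a log2 fold change of 1.36 (adjusted p = 0.0242) in C-3BO mice. The latter did not pass without HFD mice 4 and 5, at 0.88 (adjusted p = 0.243), or with the muscle covariate, at 1.04 (adjusted p = 0.22), while the difference with the covariate was 5.07 (adjusted p = 1.38e-06). *Mb*, *Scn4b*, *Sypl2*, *Fndc5* and *Ank1* are expressed in muscle. Their differences still passed with the muscle covariate, at 4.33 (adjusted p = 1.55e-05), 3.79 (adjusted p = 3.41e-06), 3.48 (adjusted p = 6.92e-05), 3.19 (adjusted p = 0.023) and 2.49 (adjusted p = 0.000253). *Mb* is itself a marker in that covariate. For *Mb* the levels were 16.4 to 103 CPM on chow and 18.1 to 98.6 CPM on HFD in C-3BO mice and 22.4 to 316 CPM on chow and 0.813 to 7.99 CPM on HFD in control mice, with a difference of 5.63 (standard error 0.97, adjusted p = 0.000685). *Scn4b*, a sodium channel subunit, had 0.01 (adjusted p = 0.994) in C-3BO mice and -5.04 (adjusted p = 1.07e-06) in control mice, and with the covariate 3.65 (adjusted p = 3.77e-07) and -0.14 (adjusted p = 0.916). Of 28 secreted factors 4 had a difference above 0 and 1, *Nrg4*, below. Besides *Ptgds* and *Bmp8b* these were *Epdr1*, the batokine ependymin-related protein, with 0.24 (adjusted p = 0.631) against -2.76 (adjusted p = 1.65e-07) (1.31 (adjusted p = 0.0182) against -1.21 (adjusted p = 0.101) with the covariate), and *Rbp4*, the retinol carrier, with 0.14 (adjusted p = 0.636) against -1.76 (adjusted p = 5.73e-08).

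Among the 8 largest differences below 0 were those of *Sorcs2*, *Rasd1*, *Slc25a48*, *Fam102a*, *Tusc5*, *Plin4* and *Rasl12*. *Tusc5*, a regulator of GLUT4 trafficking in adipocytes, had 387, 392, 269.9, 388 and 319.6 CPM in the 5 chow control mice and 1222, 1169, 819.6, 997 and 1102 CPM in the 5 HFD control mice and 497 to 836 CPM on chow and 622 to 973 CPM on HFD in C-3BO mice. It rose in control mice, with 1.59 (adjusted p = 7e-10), and had 0.20 (adjusted p = 0.331) in C-3BO mice, with a difference of -1.39 (standard error 0.21, adjusted p = 8.65e-05). *Plin4*, a lipid droplet coat gene, fell in C-3BO mice, with 773, 922, 882, 708 and 732 CPM in the 5 chow mice and 501, 454, 558, 446 and 523 CPM in the 5 HFD mice. It rose in control mice, so that -0.69 (adjusted p = 0.00029) stood against 0.65 (adjusted p = 0.000322), with a difference of -1.35 (standard error 0.20, adjusted p = 7.29e-05). *Sorcs2*, a sortilin-family receptor, fell in both genotypes and by more in C-3BO mice, with 114, 96.8, 110.1, 51.8 and 142 CPM in the 5 chow mice and 8.03, 5.53, 5.14, 8.35 and 11.1 CPM in the 5 HFD mice. Its log2 fold changes were -3.80 (adjusted p = 1.54e-10) and -2.10 (adjusted p = 4.47e-07), with a difference of -1.69 (adjusted p = 0.0231).

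**Figure D5:**
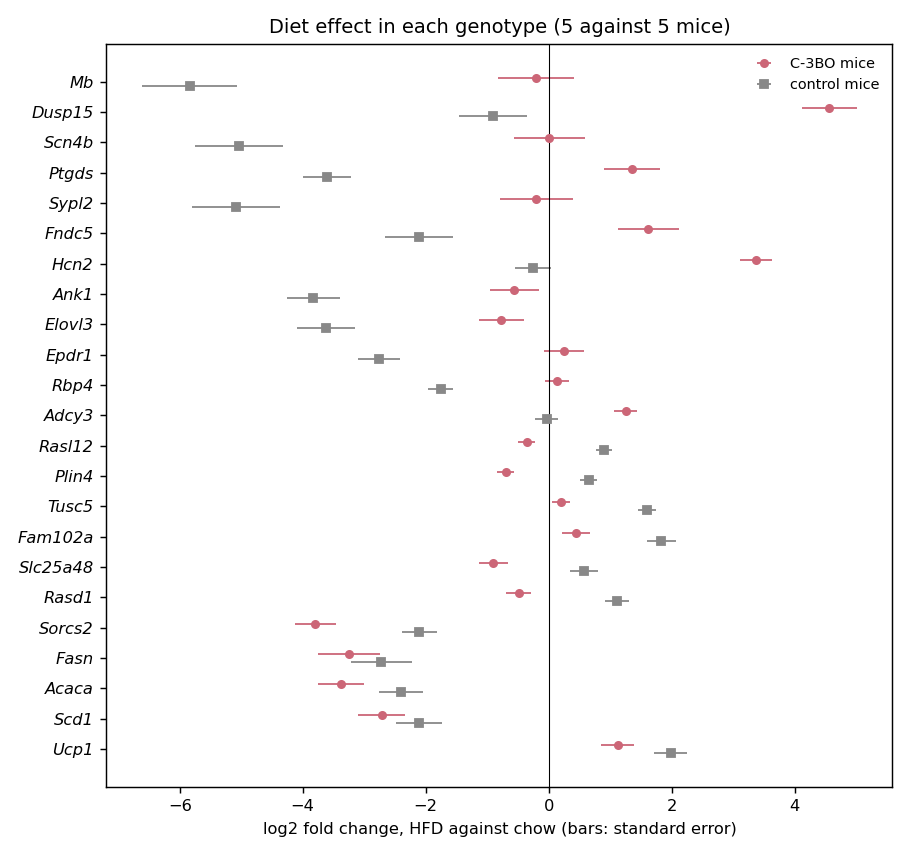
Log2 fold change, HFD against chow, of genes whose diet effect differed between genotypes, and of *Fasn*, *Acaca*, *Scd1* and *Ucp1*, in C-3BO mice (circles) and control mice (squares), with bars of 1 standard error. *Fasn* (-3.24 and -2.72) lies on the same side in both genotypes, whereas *Hcn2* (3.37 and -0.25) and *Plin4* (-0.69 and 0.65) do not.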

How the data were processed

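BAT libraries of 4 groups of 5 mice were used, and fits also included the 20 libraries of injected mice. Per the labels and methods, the authors prepared TruSeq poly(A) libraries, used STAR to map reads to mm9, HOMER for tag directories and iRNA-seq to count exonic reads of RefSeq genes. The authors deposited these raw counts without normalization. Tool versions, strandedness and filters are not given in the sources used here, so reads of overlapping antisense genes may be mixed. The deposited table of 20295 genes holds no row without a gene name.

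Groups were taken from the labels. The filterByExpr function of edgeR 4.0.16, given the 8 groups and a minimum count of 10, kept 13277 genes. A quasi-likelihood model holding a mean for each group, with TMM factors, was fitted to all 40 libraries in R 4.3.3, and p-values were adjusted over all tested genes by the method of Benjamini and Hochberg. Interactions passed an adjusted p of 0.05 alone. The standard error is the log2 fold change divided by the square root of F. Length-scaled levels are CPM divided by the deposited exon length. The model was tested on simulated data with known fold changes. Gene positions are 1-based in mm9.

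Pathway and marker lists, and the members described, were chosen with earlier results of these data known. Up to 6 members of each list were named, by lowest adjusted p among those that passed and then by defining role. The 12 highest and 12 lowest log2 fold changes were taken among genes more than 2-fold different in both fits, without overlap between mice and with a mean of at least 5 CPM in 1 group. The 8 largest differences between genotypes in each direction had to pass in both fits, and the 6 genes that moved most between fits were also named. Some genes that these rules name are not reported here.

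Alternatives were RLE factors, library totals, no filter, a filter of 10 counts in every library, the libraries of a comparison alone, replicate number as a block, DESeq2 1.42.0 with all libraries or those of the comparison, and each replicate left out in turn. The muscle covariate, the mean log2 CPM of 17 muscle markers with a prior count of 2, was added after the data were seen. Figures were drawn with Python 3.11.15 and matplotlib 3.10.9.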

Additional observations from a re-analysis of the deposited data

Results flagged for a closer look

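Among 79 groups of 5 mice checked for a mouse far from the other 4, 5 stood out, where chance alone gives about 1 in 20. On chow, C-3BO mouse 2 had 1.62 CPM of *Alb* against 0.111 to 0.301 CPM in the other 4, and C-3BO mouse 4 had 206 CPM of *Gyk* against 122 to 133 CPM. On HFD, C-3BO mouse 4 had 708 CPM of *Gyk* and 14.5 CPM of *Bmp8b*, each the highest of its group, and C-3BO mouse 5 had the lowest *Fdft1*, 20.5 CPM.

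For 36 of the named genes the diet effect differed between C-3BO and control mice in edgeR's test of the difference, and the values here are the C-3BO log2 fold change minus that of control mice. The differences of *Mb* (5.63), *Dusp15* (5.47), *Bmp8b* (5.28), *Scn4b* (5.05), *Ptgds* (4.96) and *Sypl2* (4.88) were the largest above 0. *Fndc5* (3.73), *Hcn2* (3.63), *Ank1* (3.27), *Epdr1* (3.00), *Emb* (2.86) and *Elovl3* (2.85) came next. Among the other genes higher in C-3BO mice on HFD, *Rasl10a* had 2.39, *Sult5a1* 2.37, *Lppr4* 1.93, *Adcy3* 1.28 and *Loxl1* 1.24. *Rbp4* had 1.90. Mitochondrial genes and genes of the chaperone list had differences under 1, with *Xbp1* at 0.79, *Ndufa9* at 0.78, *Mcee* at 0.71, *Sdhb* at 0.66, *Mdh2* at 0.65, *Bckdhb* at 0.58 and *Calr* at 0.54.

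Below 0 lay *Sorcs2* (-1.69), *Rasd1* (-1.60), *Slc25a48* (-1.47), *Fam102a* (-1.39), *Tusc5* (-1.39), *Plin4* (-1.35), *Rasl12* (-1.26), *Ppara* (-0.93), *Adora1* (-0.86), *Nrg4* (-0.71) and *Nr1d1* (-0.68). Without HFD C-3BO mice 4 and 5, *Bmp8b*, *Ppara*, *Sult5a1*, *Rasl10a*, *Nrg4*, *Loxl1*, *Nr1d1*, *Bckdhb* and *Mcee* no longer passed, with adjusted p from 0.0728 to 0.141. Their differences were then 3.89, -0.74, 1.23, 2.30, -0.61, 1.12, -0.67, 0.58 and 0.63 in this order. *Rasl10a*, *Calr* and *Mcee* no longer passed with the muscle covariate, at 2.21, 0.50 and 0.69 (adjusted p = 0.0573, 0.0615 and 0.069).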

How the results depend on the processing

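In C-3BO mice, the 321 genes more than 2-fold higher became 549 with library totals, 57 where every library had to hold 10 counts, 148 with the libraries of the comparison alone and 177 without HFD mice 4 and 5. The 449 genes more than 2-fold lower became 111 under that count filter and 226 with the muscle covariate. In control mice, the 165 higher genes became 344 with library totals and 77 under the count filter, and the 647 lower genes became 155 and, with the muscle covariate, 281. The 179 differences above 0 became 283 with library totals, 117 with no filter, 108 with the libraries of the comparison alone, 315 with DESeq2 and all libraries and 79 without HFD mice 4 and 5. The 97 below 0 became 60 with the libraries of the comparison alone and 47 without HFD mice 4 and 5. Requiring 10 counts in all libraries left 8943 genes to test. The smallest library, HFD saline replicate 4, held 849126 counts, against 5026435 or more in the C-3BO libraries. This filter thus holds C-3BO genes to the depth of a library outside the comparison. The other causes were not tested.

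Leaving out each replicate in turn gave 251 to 344 genes higher and 412 to 496 lower in C-3BO mice, 151 to 182 and 629 to 687 in control mice, and 95 to 272 differences above 0 and 65 to 184 below 0. Differences above 0 numbered 95 without HFD control mouse 1, 101 without HFD control mouse 2, 119 without chow control mouse 3, 119 without chow control mouse 4, 272 without HFD control mouse 4 and 100 without HFD C-3BO mouse 4, and those below 0 numbered 184 without chow C-3BO mouse 3.

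The labels do not say whether replicate numbers pair the mice, and correlations between 5 and 5 mice cannot exclude it. Deviations of same-numbered mice correlated at -0.16 to 0.10 in C-3BO mice and at -0.08 to 0.23 in control mice, and 0 of 5 and 2 of 5 numbers correlated best with their own. With replicate number as a block, 146 genes were higher and 310 lower in C-3BO mice, 149 and 535 in control mice, and 66 differences were above 0 and 36 below 0.

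Of the named genes, signs reversed with the muscle covariate in C-3BO mice for *Mb* (log2 fold change 3.00), *Sypl2* (3.64), *Ank1* (1.22), *Ckmt2* (0.46), *Fitm1* (0.32), *Pygm* (0.23) and *Phkg1* (0.085). They reversed without HFD mice 4 and 5 for *Cyp4a10* (-1.14) and *Cyp4a14* (-0.015). In control mice this check covered only part of the named genes, where *Ckm* (0.19) reversed with the covariate. Other muscle genes reversed there too, as *Myh1* from -6.93 to 0.31 and *Pygm* from -4.17 to 0.74. *Mb* and *Ckm* are themselves markers in the muscle covariate. Over all alternatives, values of named genes in C-3BO mice stayed on the same side of the test 3706 times, lost the call 181 times and gained it 39 times. Depth limits *Dusp15*, *Plk1*, *Top2a* and *Cacng5*, which were low on chow.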
